A study of Mus musculus with 3 samples.

Results

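The genes described here encode the Lgr receptors (Lgr4, Lgr5 and Lgr6), the R-spondins that bind them (Rspo1, Rspo2, Rspo3 and Rspo4) and the membrane ubiquitin ligases that the receptors and R-spondins act on (Znrf3 and Rnf43). Probe sets were taken where the platform annotation paired them with exactly 1 of these 9 symbols, which gave 13 of 28898 probe sets with a single symbol, and each of the 9 genes had at least 1. RNA was measured on 3 Affymetrix arrays of 1 group. The cells came from female mouse embryos at embryonic day 14 that carried Lgr5-IRES-GFP, a construct in which green fluorescent protein is made along with Lgr5, and flow cytometry kept those with high CD49f (the integrin alpha 6 chain of basal epithelium) and a high Lgr5 reporter signal. The females of a whole litter were pooled for an array, with another litter on each, and no second group or control sample was measured. The sort therefore chose cells by the Lgr5 locus itself, so the Lgr5 level is a check of the gate and not an independent result. The sorted cell number was 813 or 2000 without a label that ties it to an array, and strain and allele number were not given. The labels give 25 amplification cycles for each of the 3 arrays.

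R-spondins are secreted proteins that strengthen Wnt signalling. Znrf3 and Rnf43 tag Frizzled receptors with ubiquitin and so remove them from the cell surface, and both genes are themselves induced by Wnt signalling. An R-spondin bridges an Lgr receptor and 1 of these ligases, the ligase is cleared from the membrane, and more Frizzled remains. Lgr5 marks stem cells of several epithelia and is a Wnt target gene, and Lgr6 marks stem cells of skin.

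Promoter sequences are shown for Lgr4 and Rnf43, a receptor and a ligase gene above background, and for Rspo1, a ligand gene that was not, because their windows lie before the annotated start of the gene. Sequences are from RefSeq on GRCm38.p6, which holds windows for 5 of the 9 genes (Lgr4, Lgr6, Rspo1, Rspo4 and Rnf43), with CG dinucleotides in capitals. The Lgr4 window is chr2:109917397-109917646 (plus strand), the Rnf43 window is chr11:87662837-87663086 (plus strand) and the Rspo1 window is chr4:124986180-124986400 (plus strand).
Lgr4: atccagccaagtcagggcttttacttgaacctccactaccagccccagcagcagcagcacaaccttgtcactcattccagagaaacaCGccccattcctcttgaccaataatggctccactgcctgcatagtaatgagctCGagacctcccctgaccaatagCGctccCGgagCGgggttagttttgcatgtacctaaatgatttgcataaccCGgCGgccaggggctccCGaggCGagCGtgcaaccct
Rnf43: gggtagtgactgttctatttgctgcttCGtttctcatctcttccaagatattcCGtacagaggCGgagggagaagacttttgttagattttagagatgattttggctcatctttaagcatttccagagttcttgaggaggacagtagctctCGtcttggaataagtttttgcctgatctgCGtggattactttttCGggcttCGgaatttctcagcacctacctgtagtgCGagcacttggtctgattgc
Rspo1: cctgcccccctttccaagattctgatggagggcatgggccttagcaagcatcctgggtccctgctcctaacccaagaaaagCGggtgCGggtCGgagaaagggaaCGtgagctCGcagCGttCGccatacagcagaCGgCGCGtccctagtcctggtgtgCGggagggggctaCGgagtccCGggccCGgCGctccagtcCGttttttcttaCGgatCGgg
The printed runs hold 10 CG dinucleotides for Lgr4, 8 for Rnf43 and 18 for Rspo1. Over the full 250 bases before the start, Rspo1 had 22 and Rspo4 had 24, against 10 for Lgr4, 16 for Lgr6 and 8 for the first Rnf43 start, while the median of all 32851 windows was 6. The second Rnf43 start had 2. The Rspo4 window and the second Rnf43 window lie wholly inside the annotated gene, as do parts of the full Rspo1 and Lgr6 windows. The counts therefore do not rank the promoters of these genes. Letters known to be bound by Tcf and Lef factors (CTTTGAA or CTTTGAT or CTTTGTA or CTTTGTT, both strands) were in 0 of the 6 windows of these genes and in 14.8% of all windows. The p53 family half-site, which p63 also binds, was in 0 of 6 and in 7.1% of all windows, and TATAAA (both strands) in 0 of 6 and 12.4%. CCAAT, on either strand, stood at 2 places before Lgr4 and in none of the other 5 windows, and 33.8% of all windows hold it.

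Receptor and ligase genes gave a signal above background and ligand genes did not. Background was set on each array at the 95th percentile of 78 olfactory and vomeronasal receptor genes, a log2 value of 6.29, 6.23 and 6.22 on replicates 1, 2 and 3. Of the 9 genes, 5 were above background (limma, adjusted p under 0.05 over 17097 genes), namely Lgr4, Lgr5, Lgr6, Znrf3 and Rnf43, and the same 5 had an unadjusted p under 0.05. Of all genes tested 52.5% were above background, so the share of the 9 as a whole was near that of the array. Of 36 measured genes known from other tissues (tissue-restricted genes, such as Alb and Ins2), 11 also passed (30.6%). A call alone therefore does not show expression in the sorted cells. At the level of probe sets, 7 of 13 were above background, against 47.2% of all single-symbol probe sets. The median margin over the threshold was 1.36 for the 9 genes and 0.63 for all genes, on the log2 scale. Since each gene was represented by its probe set with the highest mean, those of the 9 genes with a second probe set are described with both.

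**Figure D1:**
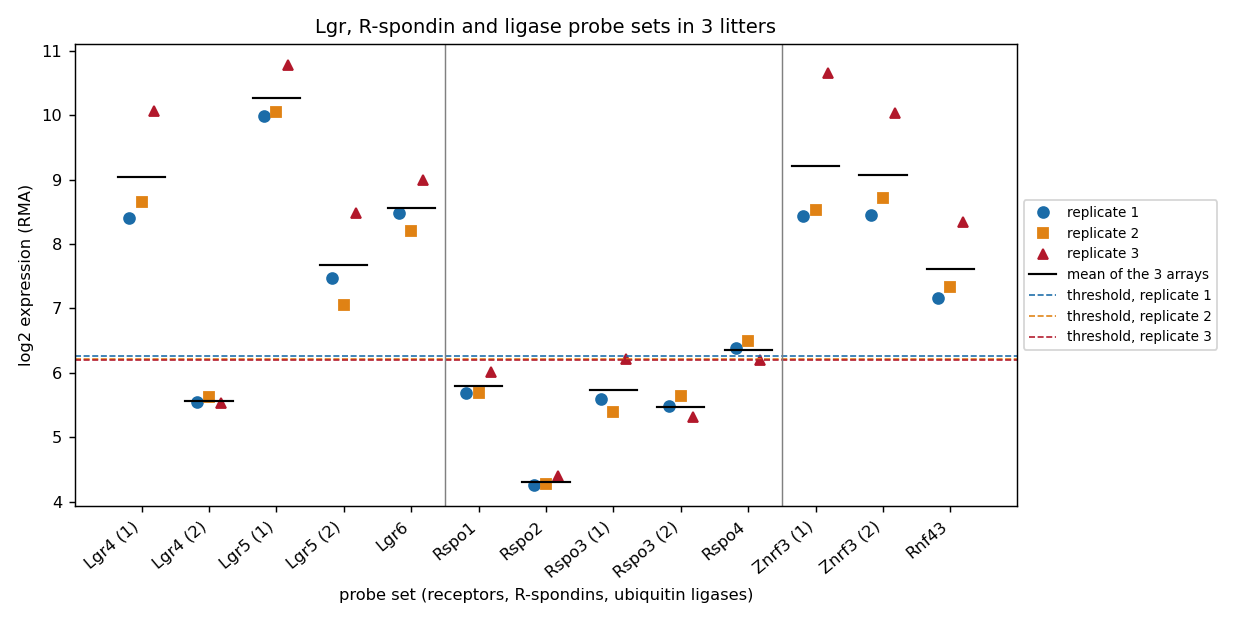
Log2 expression (vertical axis) of the 13 probe sets on the arrays of replicates 1, 2 and 3 (symbols), with the mean of the arrays (black bars) and the threshold of each array for probe sets (dashed lines); (1) and (2) are the brighter and the dimmer probe set of a gene. Receptor and ligase probe sets lie above the thresholds apart from Lgr4 (2), and those of the R-spondins lie below or close to them: Rspo4 lies astride, and Rspo3 (1) just exceeds the threshold on replicate 3 (6.22 against 6.20).

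Lgr5, the receptor gene whose reporter the gate used, was measured by probe set 1450988_PM_at at 9.99, 10.04 and 10.78 (log2 expression) in the pools of replicates 1, 2 and 3. Its mean margin over the threshold was 4.02 ± 0.20 (SE), with an adjusted p of 4.16e-05. The dimmer Lgr5 probe set, 1444519_PM_at, had 7.48, 7.06 and 8.48, and was above background as well (margin 1.45, adjusted p = 0.00895 over all probe sets). Both probe sets were highest on replicate 3, and each array exceeded its threshold with either. The dimmer one lost its call under the thresholds of tissue-restricted genes (adjusted p = 0.210) and of the brightest antigenomic control (adjusted p = 0.529).

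Lgr4, the most widely expressed of these receptors in mammals, had 8.41, 8.66 and 10.06 on the 3 arrays with probe set 1433891_PM_at (mean 9.04 ± 0.89, SD, n = 3). Its margin was 2.79 ± 0.36 (SE) and its adjusted p was 0.00102. Replicate 3 stood clear of replicates 1 and 2, which differed by 0.25. The other Lgr4 probe set, 1453765_PM_at, disagreed: it had 5.55, 5.63 and 5.53, lay below the threshold on every array (margin -0.66) and varied by only 0.10. The call for Lgr4 therefore rests on 1 of its 2 probe sets.

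Lgr6 was measured by a single probe set, 1427028_PM_at, with 8.47, 8.20 and 8.99 on replicates 1, 2 and 3. The mean was 8.55 ± 0.40 (SD, n = 3), the margin 2.30 ± 0.20 (SE) and the adjusted p 0.000235. All 3 receptor genes were thus above background in the same pools, Lgr4 with its brighter probe set alone. A call does not by itself show expression in the sorted cells. Whether single cells hold more than 1 of them cannot be read from pooled RNA, and fewer cells of a type and less RNA per cell cannot be told apart.

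None of the 4 R-spondin genes was above background, and none had an unadjusted p under 0.05. Rspo1, known for its part in sex determination and in the mammary epithelium of adult mice, had 5.69, 5.69 and 6.01 on replicates 1, 2 and 3 (margin -0.45 ± 0.13, SE). Rspo2, a ligand needed for limb and lung growth in mice, had 4.26, 4.28 and 4.41 (margin -1.94 ± 0.09). Each array of these 2 genes lay under its threshold.

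Rspo3, a ligand with roles in placenta and blood vessels in mice, had 5.60, 5.39 and 6.22 with its brighter probe set, 1455607_PM_at (margin -0.51 ± 0.20, SE). Its second probe set, 1443187_PM_at, had 5.48, 5.64 and 5.31, so the pair did not share the high value on replicate 3. Rspo4, the ligand gene linked to nail growth in human, had 6.39, 6.50 and 6.20, which lay above the threshold on replicates 1 and 2 and just under it on replicate 3. Its margin was 0.11 ± 0.13 (SE; adjusted p = 0.366), and it was the only ligand gene with a call under any alternative (adjusted p = 0.00809 with the 90th percentile as threshold). A signal that does not pass this test does not show that the RNA is absent, since weak probe sets cannot be told from background on these arrays.

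Both ligase genes were above background. Znrf3 had 8.43, 8.52 and 10.66 on replicates 1, 2 and 3 with probe set 1435608_PM_at (margin 2.95 ± 0.49, SE; adjusted p = 0.00265). Its second probe set, 1437646_PM_at, had 8.45, 8.72 and 10.04, with a margin of 2.84. The pair thus gave the same order of arrays, with replicate 3 far above the others. Rnf43, the related ligase gene, had 7.17, 7.34 and 8.33 with its one probe set, 1427008_PM_at (margin 1.36 ± 0.28, SE; adjusted p = 0.00549). Rnf43 lost its call with tissue-restricted genes as background (margin 0.30, adjusted p = 0.472) and with the brightest antigenomic control (margin 0.23, adjusted p = 0.506), where 31.0% and 31.6% of all genes were called. Lgr4, Lgr5, Lgr6 and Znrf3 were called under each of these 2 thresholds.

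**Figure D2:**
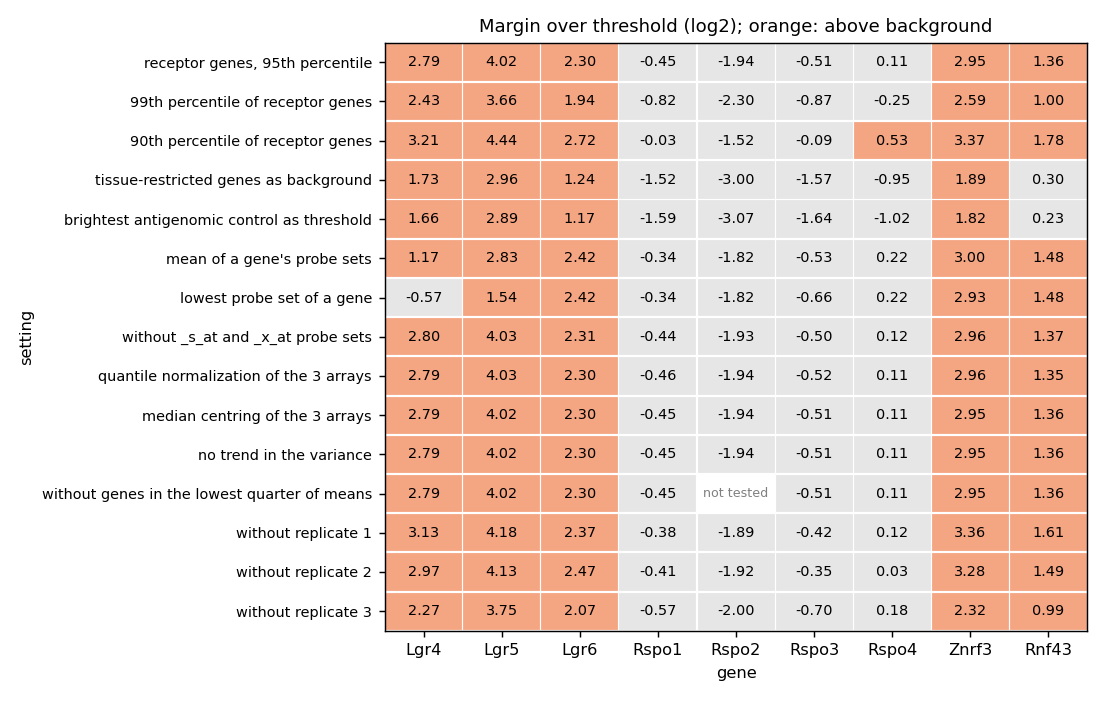
Margin of each gene over the background threshold (numbers, log2, mean over the arrays used) under the setting reported (top row) and 14 alternatives (other rows); orange cells had an adjusted p under 0.05 and grey cells did not. Lgr5, Lgr6 and Znrf3 were called in each row, Rspo1, Rspo2 and Rspo3 in none in which they were tested.

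The detected genes differed between litters in 1 direction. All 5 were highest on replicate 3, against 63.1% of the 8972 genes above background. Replicate 3 exceeded the mean of replicates 1 and 2 by 2.18 for Znrf3, 1.52 for Lgr4, 1.08 for Rnf43, 0.76 for Lgr5 and 0.65 for Lgr6 on the log2 scale, while the median of all genes above background was 0.26. A difference of at least 1 was reached by 3 of the 5 and by 9.20% of genes above background. The second probe sets gave 1.45 for Znrf3, 1.22 for Lgr5 and -0.06 for Lgr4. The Znrf3 probe set that gave 2.18 was the brighter of the pair through its value on replicate 3, since without that array the other had the higher mean, so the 2.18 is partly set by this choice. Replicates 1 and 2 differed by 0.05 to 0.27 in these 5 genes.

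Replicate 3 had a different distribution of values from the other arrays. Array medians over all probe sets were 6.25, 6.25 and 6.52 on replicates 1, 2 and 3, and the correlation across probe sets was 0.994 between replicates 1 and 2 against 0.942 and 0.944 for replicate 3 with each of them. Genes and probe sets are not independent replicates, so these correlations only describe the arrays. After quantile normalization of the 3 arrays the median difference over genes above background was -0.12 and 34.9% of them were highest on replicate 3, but all 5 detected genes were still highest there, by 1.78 for Znrf3, 1.10 for Lgr4, 0.69 for Rnf43, 0.35 for Lgr5 and 0.23 for Lgr6. With median centring 43.4% of genes above background were highest on replicate 3, and so were all 5. Each litter was measured once, so the difference has no test. The settings of the deposited normalization are not given in the sources used here, so it is not known whether replicate 3 was normalized together with the others. Litter, cell number, amplification, array and normalization cannot be told apart. Without replicate 3 the same 5 genes were called.

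**Figure D3:**
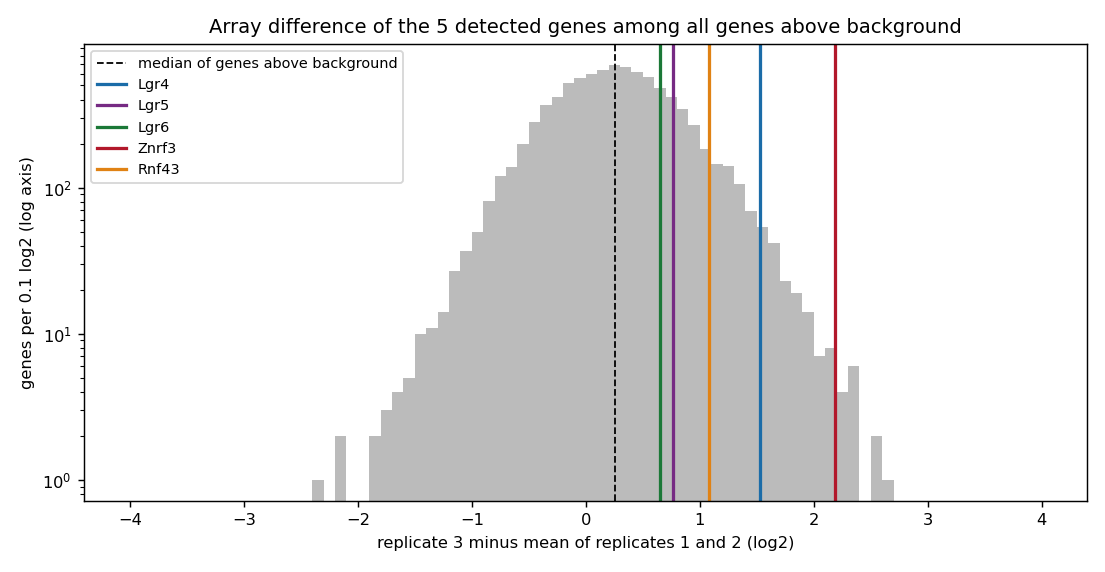
Replicate 3 minus the mean of replicates 1 and 2 (horizontal axis, log2) for the 8972 genes above background (grey bars, number of genes on a log axis), with their median (dashed) and the 5 detected genes (coloured lines). Lgr6 and Lgr5 lie in the body of the distribution at 0.65 and 0.76, Rnf43 at 1.08, Lgr4 at 1.52 and the brighter Znrf3 probe set near the right edge at 2.18.

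Among R-spondin genes the same difference was 0.73 for the brighter Rspo3 probe set, 0.32 for Rspo1, 0.14 for Rspo2 and -0.25 for Rspo4. These values lie at or under background, where differences between arrays carry little information.

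Most listed genes that are known to act with the receptors and ligases were above background, as were 52.5% of all genes. Of 12 Frizzled and Lrp genes, which encode the Wnt receptors that the ligases remove, 8 were above background (66.7%). Their median margin was 1.50 against 0.63 for all genes. Fzd1 (8.84 ± 0.37) and Fzd2 (10.54 ± 0.17, SD, n = 3) were called and Fzd4 (4.63 ± 0.23) was not. These receptor genes did not all share the higher values on replicate 3: it was the highest array for 6 of the 12 and the lowest for 6. Over all 17097 genes it was the highest for 10785 and the lowest for 4764. The counts for the 12 include the 4 genes not called, where array differences carry little information. The difference of replicate 3 from the mean of the other arrays was -0.57 for Fzd1 and -0.24 for Fzd2, with a median of 0.03 over the 12 genes. The median level of the 12 was nonetheless higher on replicate 3 (7.39, 7.32 and 8.36 on replicates 1, 2 and 3). All 3 Dishevelled genes, adaptors that link Frizzled to the ligases, were called, among them Dvl1 (7.19 ± 0.31) and Dvl2 (8.20 ± 0.18). Dvl1 fell under the thresholds of tissue-restricted genes and of the brightest antigenomic control (margins -0.12 and -0.19).

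Downstream genes were detected as well, at shares above the 52.5% of all genes. All 14 measured genes of beta-catenin, its destruction complex and its Tcf and Lef partners were above background, such as Ctnnb1, the beta-catenin gene (11.68 ± 0.41, SD, n = 3), and Apc, a scaffold of the complex (9.59 ± 0.08). Of 15 genes known to be induced by Wnt signalling, with Lgr5, Znrf3 and Rnf43 left out, 12 were called, with a median margin of 2.34. Axin2, a feedback inhibitor gene, had 9.33, 8.93 and 8.41 on replicates 1, 2 and 3, the reverse of the order seen for Znrf3. Nkd1, another feedback inhibitor gene, had 9.18, 9.12 and 9.48, and Sp5, which was not called, had 6.61, 6.36 and 7.13, and was called without replicate 3 (adjusted p = 0.0330). Replicate 3 was the highest array for 6 of these 15 genes and the lowest for 6, the 3 not called included. Over all 17097 genes it was the highest for 10785 and the lowest for 4764. The Wnt-induced genes thus had no common order of arrays.

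Ligand and inhibitor genes of the Wnt pathway were detected in part. Of 19 Wnt ligand genes 9 were called (47.4%, against 52.5% of all genes), with a median margin of 0.66 that was close to that of all genes. Wnt2b had 7.97, 7.69 and 6.81 on replicates 1, 2 and 3 and Wnt4 had 9.18, 9.30 and 9.60, while Wnt1 (4.87 ± 0.05, SD, n = 3) was not above background. Among 8 measured inhibitors of Wnt reception 6 were called, including Dkk3 (7.74 ± 0.12) and the Frizzled-related gene Sfrp1 (9.13 ± 0.47), and Dkk2 (6.45 ± 0.32) was not. All 5 measured syndecan and glypican genes, surface proteoglycans of which syndecan 4 is known to bind R-spondin 3, were called. Sdc2 stood at 8.86 ± 0.25 and Sdc3 at 9.29 ± 0.29.

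Relatives of the receptors did not pass the test and most relatives of the ligases did. The 3 measured hormone receptor genes of the Lgr family, Fshr, Tshr and Rxfp2, were not above background, with a median margin of -1.12. Fshr, the follicle-stimulating hormone receptor gene, had 4.89, 4.99 and 5.14 on the 3 arrays. Of 8 measured membrane ligase genes of the family to which Znrf3 and Rnf43 belong, 6 were called (75%), against 52.5% of all genes. Among them were Rnf13 (7.96 ± 0.12, SD, n = 3) and Rnf130 (7.60 ± 0.49). Rnf128, an ubiquitin ligase gene known from T cells, had 6.26, 6.50 and 8.66 on replicates 1, 2 and 3 and did not pass the test (adjusted p = 0.135). It passed without replicate 1 (adjusted p = 0.000363) or without replicate 2 (0.00123). Those fits rest largely on variances shared over genes, although the values of Rnf128 in them lay far apart. On replicate 3 Rnf128 exceeded the mean of the others by 2.29, against 2.18 for Znrf3.

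**Figure D4:**
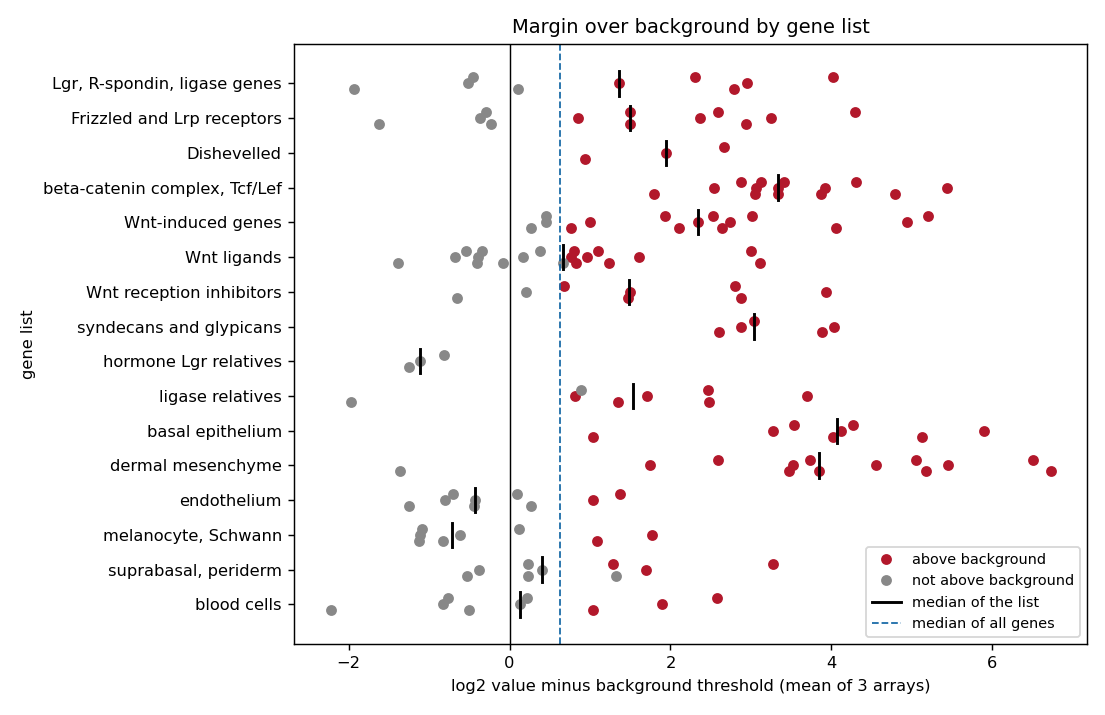
Margin over the background threshold (horizontal axis, log2, mean of 3 arrays) of each gene in 16 lists; red points were above background, grey points were not, black bars are list medians and the blue dashed line is the median of all genes (0.63). The 4 grey points of the top row are the R-spondin genes, and the hormone Lgr relatives hold grey points alone.

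The labelled cell type was checked with its markers, and markers of other cells were measured on the same arrays. All 8 basal epithelial markers were above background, with Krt5 and Krt14 of the basal keratin pair at margins of 5.90 and 5.13, Trp63, the p63 gene, at 4.27 and Itga6, the CD49f gene, at 4.12. The gate used CD49f, so the Itga6 level is a check of the gate and not an independent result. The summed level of the 8 markers (log2 of the sum of linear values) was 13.42, 13.73 and 13.88 on replicates 1, 2 and 3. Of 13 dermal mesenchyme markers 12 were called as well. Col1a1 stood at 12.99 ± 0.15 and Col1a2 at 7.99 ± 0.09 (SD, n = 3), and Pdgfra (4.89 ± 0.55) was not called. Their summed level was 14.99, 14.89 and 14.75, so it was lowest on replicate 3, where the receptor and ligase genes were highest. The part of mesenchymal RNA in the levels of these genes was not tested.

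Markers of other cell types were called less often than the 52.5% of all genes and about as often as tissue-restricted genes (30.6%). These shares therefore do not show RNA of such cells, and they do not decide it for a single gene. Endothelial markers were called in 2 of 9 cases, Pecam1 (8.12, 8.30 and 6.47 on replicates 1, 2 and 3) and Egfl7 (7.29 ± 0.40), and Cdh5 (5.81 ± 0.27, SD, n = 3) was not. Pecam1 was not called over the 99th percentile of the receptor genes (adjusted p = 0.0709) or over either of the other background sets. Melanocyte and Schwann markers were called in 2 of 8 cases, Sox10 (8.02 ± 0.22) and Pmel (7.33 ± 0.26), while Mitf (5.64 ± 0.61) was not. Suprabasal and periderm markers reached 3 of 9, among them Krt10, with 6.94, 7.70 and 9.18 on the 3 arrays, and Sbsn (7.54 ± 0.29), but not Krt1 (6.66 ± 0.34). Blood cell markers reached 3 of 9, among them Klf1 (8.15 ± 0.81) and Cd68 (8.83 ± 0.26), but not Hbb-y (5.42 ± 0.19). The summed levels on replicates 1, 2 and 3 were 9.75, 9.75 and 9.44 for endothelial, 9.32, 9.39 and 9.75 for melanocyte and Schwann, 10.86, 10.93 and 10.90 for suprabasal and 10.44, 10.37 and 10.08 for blood cell markers. Melanocyte and Schwann markers were thus the group of these 4 that was highest on replicate 3. Their sum includes Sox10, and their part in the array difference was not tested.

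The 3 genes above background whose deviations over the arrays lay nearest to those of Lgr5 were Cep170b, Ociad1 and 2610005M20Rik, at Euclidean distances of 0.0053, 0.0059 and 0.0070 over 3 arrays. Cep170b had 9.71, 9.76 and 10.50, a pattern like the 9.99, 10.04 and 10.78 of Lgr5. With 3 arrays this likeness is weak, since 4049 genes lay within a distance of 0.44, the SD of Lgr5 itself.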

How the data were processed

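Expression was measured on 3 arrays of 1 group, 1 litter each. The authors deposited 1 log2 expression value per probe set and array, made with RMA and the affy package per the submitters' processing notes, without versions or settings. Usually RMA corrects for background, normalizes the arrays processed together and merges the probes of a set, so small signals are squeezed toward each other. Whether the 3 arrays were processed together is not known, and replicate 3 had another distribution of values. Arrays have no count depth, and their number limits the precision.

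Of 45141 probe sets, 104 were manufacturer controls, 28898 had 1 gene symbol in the platform annotation, 551 had several and 15588 had none listed; only those with 1 symbol were used. A gene was represented by the brightest of its probe sets by mean level (7180 of 17097 genes had several). The 95th percentile of 78 olfactory and vomeronasal receptor genes set the threshold of an array. Margins over it were tested with limma 3.58.1 (R 4.3.3; a single mean per gene, moderated variances with a trend, one-sided against 0, Benjamini-Hochberg over 17097 genes or 28898 probe sets, called under 0.05). P-values rest on the spread over 3 litters and take the threshold as known. Fits that leave out an array rest largely on variances shared over genes, so their p-values say little about the spread between litters. Levels were not tested between single genes. Margins nonetheless set each gene against the receptor genes, and list medians and summed levels combine genes, so differences between probe sets enter them. Differences between litters were described, not tested. The steps were tested on simulated data.

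The 9 genes and the lists were chosen with earlier results of these data known. Genes were named by a rule: the 9 genes, Itga6, Krt5, Krt14, Trp63, the first 2 called and the first 1 not called of each list in list order, and the 3 nearest to Lgr5. Tshr and Rxfp2 were named after their values were seen. Promoters were searched over 250 bases before the start with Python 3.11.15. Alternatives changed the threshold, the background set (36 tissue-restricted genes or the brightest antigenomic control), the probe sets, the normalization, the variance model, a filter on dim genes and the arrays used.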

Additional observations from a re-analysis of the deposited data

How the results depend on the processing

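Against 8972 genes called as reported, 5295 were called over tissue-restricted genes and 5399 over the brightest antigenomic control. Of the 9 genes, 4 to 6 were above background in the 14 alternatives. Of the 13 probe sets, 5 to 8 were in the 11 alternatives run on probe sets. Lgr5, Lgr6 and Znrf3 were called in all 14 alternatives, Lgr4 in 13 and Rnf43 in 12. Rspo1 and Rspo3 were called in 0 of 14, Rspo2 in 0 of the 13 in which it was tested, and Rspo4 in 1.

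With the lowest probe set of a gene in place of the highest, margins of genes called as reported turned negative for Lgr4 (-0.57), Trp63 (-1.49), Dvl2 (-0.27), Apc (-0.26), Rnf13 (-1.04), Sbsn (-0.65) and Ociad1 (-1.63). With tissue-restricted genes as background they did for Dvl1 (-0.12) and Egfl7 (-0.0181), and with the brightest antigenomic control for Dvl1 (-0.19), Egfl7 (-0.0894) and Pmel (-0.0502). The tissue-restricted thresholds lay at 7.46, 7.30 and 7.17 on replicates 1, 2 and 3 and those of the control at 7.36, 7.31 and 7.48, above the 6.29, 6.23 and 6.22 of the receptor genes. Under both, Rnf43, Wnt2b, Dkk3, Rnf130, Pecam1, Krt10, Sbsn and 2610005M20Rik lost their call with a positive margin, as did Pmel under the first and Klf1 under the second. Calls were also lost by Pecam1 with the 99th percentile, by Sdc3 and Rnf130 with the lowest probe set and by Rnf13 and Ociad1 with the mean of probe sets. Calls were gained with the 90th percentile by Rspo4, Sp5, Dkk2, Rnf128 and Krt1, with the mean and with the lowest probe set by Sp5 and Krt1, and by leaving out replicate 1 or 2 for Rnf128 and replicate 3 for Sp5. The cause was not tested. Leaving out any 1 array left 5 of the 9 genes above background. No paired analysis was possible because there is 1 group. A weak signal, such as that of Rspo4, cannot be told from background at this signal level.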
